A study of Danio rerio with 18 samples.

Results

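Brain-only typical enhancers are the typical enhancers of the adult zebrafish brain that had no base pair in common with any enhancer listed for testis, heart or intestine. They were chosen by position. A row of the brain list of typical enhancers was taken when it overlapped none of the 8 lists of super-enhancers and typical enhancers of testis and heart at 10 months and of heart and intestine at 1 year. This gave 4061 regions of 12571 brain typical enhancers, out of 66306 regions in the whole series. The other 8510 brain typical enhancers are the group they are set against below.

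The series measured acetylation of histone H3 at lysine 27 (H3K27ac) by chromatin immunoprecipitation and sequencing in organs of wild type male zebrafish of the AB strain. The fish were 10 months old for brain, testis and one heart set, and 1 year old for intestine and the second heart set. One replicate pooled tissue of 12 fish for brain, 8 for testis, 20 for heart or 5 for intestine. Each set had 2 replicates except the heart at 10 months, which had 1. Input DNA of each replicate, which is chromatin without immunoprecipitation, was sequenced as the control. Chromatin was sheared to 175 bp at 10 months and to 200 bp at 1 year, so the brain differed from 2 of the 4 other sets in age and shearing as well as in tissue, and these cannot be told apart. The coordinates are those of the build Zv9. Every set has a single list of super-enhancers and a single list of typical enhancers, without values for its replicates, and the read depth is unknown.

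H3K27ac is written by the acetyltransferases p300 and CBP at nucleosomes beside active enhancers and promoters, and it is widely used to find them. Enhancers bind transcription factors and raise the transcription of genes that can lie far away, and many act in a single tissue or cell type. Super-enhancers are long groups of neighbouring enhancers with much H3K27ac, often near genes that define a cell's identity, whereas typical enhancers are what is left. The brain holds many kinds of neurons and glia, and an enhancer used by few of its cells contributes little to the signal of the whole organ. In whole organs, fewer cells with an active enhancer and less acetylation per cell cannot be told apart. A region missing from a list was below that list's threshold, which is not the same as having no H3K27ac there.

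The rule depends on how much of the genome the other lists cover. Together the 4 other sets covered 323 Mb, 23.8% of the 1356 Mb over which regions were listed. The testis covered the least, 60.5 Mb, followed by the heart at 10 months with 133 Mb, the intestine with 197 Mb and the heart at 1 year with 213 Mb. Of the brain typical enhancers, 56.2% met an enhancer of the heart at 1 year, 51.5% one of the intestine, 49.8% one of the heart at 10 months and 33.1% one of the testis. The brain-only regions were 32.3% of the brain typical enhancers (exact Clopper-Pearson 95% interval 31.5 to 33.1). All intervals given here cover counting over regions and not the spread between fish. The largest other group, 3138 regions or 24.96%, met enhancers of all 4 sets, and 1630 regions or 13.0% met exactly 1 set.

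Leaving out a single set would have added 204 to 516 regions to the brain-only group. Without the intestine it would have grown by the 516 regions that met the intestine alone, and without the heart at 1 year by 503. Without the testis it would have grown by 407, and without the heart at 10 months by 204. Both heart sets are of the same organ, and regions that met both of them but no other set are in neither heart count. The same rule applied to typical enhancers of other organs gave smaller shares, 24.9% of 9434 in the testis and 23.0% of 13897 in the intestine. These shares depend on which organs were sampled and on the coverage of each list, and they were not tested against each other.

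The brain-only regions were short. Their median length was 2.40 kb (95% interval 2.20 to 2.40) with quartiles of 1.40 and 6 kb, whereas the other brain typical enhancers had a median of 4.60 kb (4.40 to 4.80) with quartiles of 2 and 15.2 kb. The groups overlapped widely, from 0.199 kb in both to 130 kb among brain-only regions and 160 kb among the others. Because of their lengths, brain-only regions made up 32.3% of the brain typical enhancers and 19.8% of their base pairs (23.7 of 120 Mb). The direction was the same on all 25 chromosomes, where the median lay between 2 and 3 kb for brain-only regions and between 3.80 and 6.80 kb for the others.

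A longer region meets another list more easily, so the rule itself favours short regions, and the difference in length is given without a test. The share of brain-only regions fell with each class of length. It was 47.2% (44.4 to 50.1) of the regions under 1 kb, 42.7% from 1 to 2 kb, 33.9% from 2 to 5 kb, 29.7% from 5 to 10 kb, 23.5% from 10 to 20 kb and 13.7% (12.2 to 15.4) over 20 kb. Length also rose with the number of other sets a region met. The median was 3.40 kb for regions that met 1 other set, 3.80 kb for 2, and 5.60 kb for both 3 and 4. Testis-only typical enhancers had a median of 3.20 kb against 3.40 kb for the other testis typical enhancers, and intestine-only ones 2 against 5 kb, so the organ-only regions were the shorter at the median in all 3 organs.

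**Figure D1:**
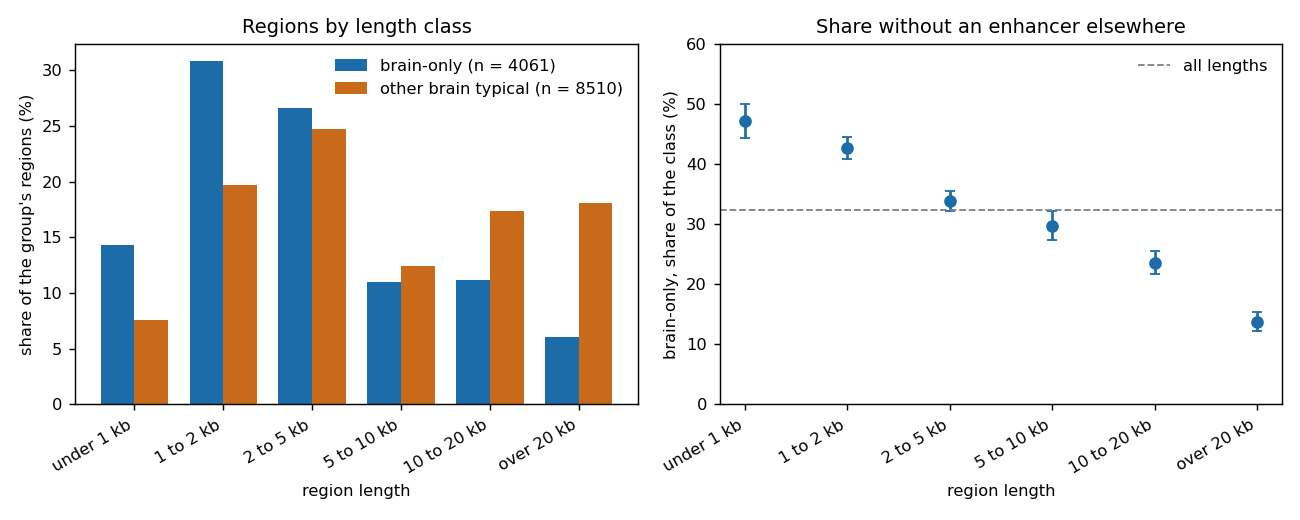
Left, the share of each group's regions (%) that falls in each of 6 classes of region length, for 4061 brain-only and 8510 other brain typical enhancers. Right, the share of each length class that is brain-only (%), with exact 95% intervals over regions and the share over all lengths as a dashed line; it runs from 47.2% under 1 kb to 13.7% over 20 kb.

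Most brain-only regions were a single acetylated locus. How many loci were joined can be read from the names of 3957 brain-only regions and 8389 others. Of these, 2913 brain-only regions (73.6%, 72.2 to 74.98) and 4666 others (55.6%, 54.5 to 56.7) consisted of 1 locus. A further 621 brain-only regions joined 2 loci, 342 joined 3 to 5 and 81 joined 6 or more. Regions of 6 or more loci were 2.05% of brain-only regions and 6.34% of the others. Read the other way, 38.4% of single loci were brain-only, 27.01% of regions of 2 loci, 18.4% of those of 3 to 5 and 13.2% (10.6 to 16.2) of those of 6 or more. The share was highest, 46.2% (39.6 to 53.0), among the 225 regions whose names give no number of loci, of which 104 were brain-only.

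The number of loci followed the length. With the other regions weighted so that the 6 length classes counted as they did among brain-only regions, 74.2% of the others were single loci, slightly above the 73.6% of the brain-only regions. Within the class of 5 to 10 kb single loci were 31.3% of brain-only regions and 34.9% of the others. At a given number of loci brain-only regions were the shorter ones as well, which the rule favours here too. The medians were 1.80 against 2.20 kb for 1 locus and 9.20 against 10.8 kb for 2. For 3 to 5 loci they were 19.6 against 22.2 kb, and for 6 or more 43.4 against 48.5 kb.

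The longest brain-only region lay on chromosome 6 from 35178201 to 35307999 (130 kb). It joined 21 loci, as many as any brain typical enhancer, and also carried the highest signal, 48389, among brain-only regions whose signal was a whole multiple of their length. Its nearest enhancer in another organ, in the heart at 1 year, was 18.0 kb away, and the nearest brain super-enhancer 1.59 Mb away. The next in length lay on chromosome 25 from 25639201 to 25738799 (99.6 kb, 11 loci), 8.80 kb from an intestine enhancer. It was followed by chromosome 5 from 74492401 to 74574799 (82.4 kb, 14 loci), chromosome 20 from 39981601 to 40062999 (81.4 kb, 11 loci) and chromosome 7 from 23133401 to 23206199 (72.8 kb, 11 loci). These 5 regions were also among the 10 with the highest such signal. The remaining 5 of those 10 were 61.6 to 70.0 kb long with 8 to 10 loci and lay on chromosomes 2, 3, 8, 17 and 19. That on chromosome 2, from 34149201 to 34213799, was 19.8 kb from a brain super-enhancer. Chromosome 11 from 42668201 to 42733999 joined 12 loci over 65.8 kb and lay 32.0 kb from one.

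Brain-only regions had less deposited H3K27ac signal per base pair than other brain typical enhancers of like length, as far as the signal can be read. It is a total over the region, but many brain regions carry the name and value of another region. The signal was therefore read only where it was a whole multiple of the region's own length after multiplication by 10000, which held for 1417 brain-only regions (34.9%) and 3448 others (40.5%). A matching length does not show that the value belongs to the region. Of these, 725 brain-only regions (51.2%) and 841 others (24.4%) shared name and value with a further region whose length matched too. The medians are therefore given with them and without them, and they were mostly short.

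With them, the brain-only median was the lower in all 6 length classes, for example 0.514 against 0.535 signal units per bp from 1 to 2 kb, 0.475 against 0.545 from 2 to 5 kb and 0.361 against 0.394 over 20 kb. Without them, 692 brain-only regions and 2607 others were left, and the brain-only median was again the lower in all 6. It was then 0.544 (0.518 to 0.657) against 0.944 (0.787 to 1.03) from 1 to 2 kb, 0.507 (0.480 to 0.540) against 0.610 (0.562 to 0.651) from 2 to 5 kb and 0.460 against 0.504 from 5 to 10 kb. From 10 to 20 kb it was 0.390 against 0.427, and over 20 kb 0.361 (0.353 to 0.370) against 0.394 (0.391 to 0.397). Under 1 kb only 13 regions of each group were left, and from 1 to 2 kb 33 of 356 brain-only regions and 50 of 382 others. In the latter class the others' median rose from 0.535 to 0.944, so leaving regions out changed the signal of those compared. The regions left are a part of the first set and not a separate check of it. Where the name was held by a single brain region, which left 381 brain-only regions and 1626 others, the brain-only median was the lower in 5 of 6 classes, and the intervals of the medians lay apart in 2. The exception was the class under 1 kb, with 0.695 in 11 brain-only regions and 0.662 in 5 others.

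Over all lengths pooled, the order of the medians depended on which regions were kept. It was 0.493 against 0.454 for the others where the length matched, 0.425 against 0.428 where no other region of that name matched, and 0.442 against 0.429 where the name was held once. Brain-only regions are shorter, and among all length-matched brain-only regions signal per base pair was lower in each longer class. The pooled medians thus compare regions of different length. Among brain-only regions whose name was held once, it was 0.543 from 1 to 2 kb and 0.544 from 2 to 5 kb. With the others weighted to the lengths of the brain-only regions, the first pair was 0.493 against 0.528. As to the total, 161 of the 1417 brain-only regions (11.4%) carried more than the lowest brain super-enhancer, 8521 signal units, against 1132 of the 3448 others (32.8%). Where no other region of that name matched, 160 of the 692 brain-only regions (23.1%) did, against 1129 of the 2607 others (43.3%). A total grows with length, and these shares were not weighted to like lengths. Signal within 1 list has no replicate here, and no test was made.

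**Figure D2:**
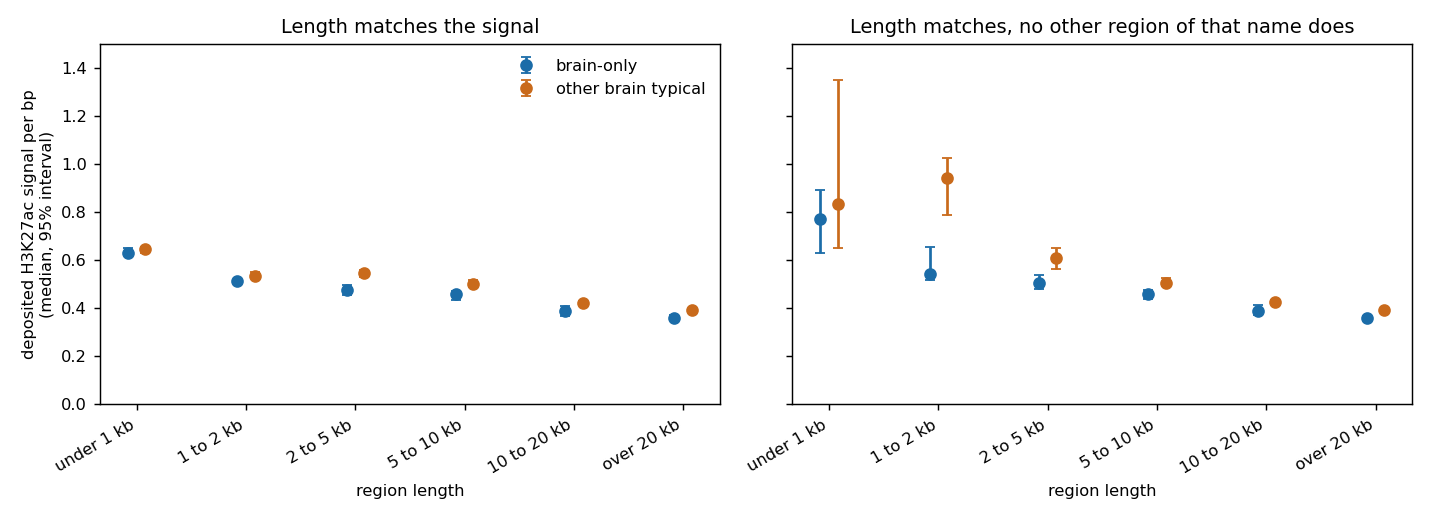
Median deposited H3K27ac signal per base pair by class of region length, with order-statistic 95% intervals over regions. Left, all regions whose length matches their signal, where repeated values make the intervals too narrow; right, those for which no other region of that name matches (692 brain-only, blue, and 2607 others, orange). The brain-only median is the lower in all 6 classes of both panels.

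Brain-only regions were found on every chromosome, with shares from 23.1% to 42.6% of the brain typical enhancers. The highest share was on chromosome 14, where 218 of 512 were brain-only (42.6%, 38.3 to 47.0), followed by chromosome 2 with 37.2%, chromosome 6 with 37.1% and chromosome 1 with 36.7%. The lowest was on chromosome 22, where 84 of 363 were (23.1%, 18.9 to 27.8), followed by chromosome 16 with 27.2% and chromosome 23 with 27.6%. On 4 chromosomes the interval lay wholly above the overall 32.3% and on 4 wholly below it, without allowance for the 25 looked at. Per megabase chromosome 14 had 4.06 brain-only regions, chromosome 22 had 1.99 and chromosome 4 had 1.98. Chromosome 4 had few brain typical enhancers, 6.28 per Mb against 8.53 to 10.5 on the others, and its brain-only share was 31.5%.

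The same chromosomes stood at the ends of the order when only single loci were counted. Among these, 44.5% were brain-only on chromosome 14 and 29.0% on chromosome 22, against 38.4% over all chromosomes. Chromosome 14 was then hardly ahead of chromosome 2 with 44.0% and chromosomes 1 and 9 with 43.9% each. The enhancers of the 4 other sets covered 18.6% of chromosome 14, 23.5% of chromosome 22 and 30.7% of chromosome 23. They covered the least, 14.7%, of chromosome 4, where 31.5% of all brain typical enhancers were brain-only. How far coverage sets the shares was not tested. Chromosome 14 also held 40 of the 104 brain-only regions whose names give no number of loci. Without such regions its share was 38.2%, against 37.2% on chromosomes 2 and 6.

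**Figure D3:**
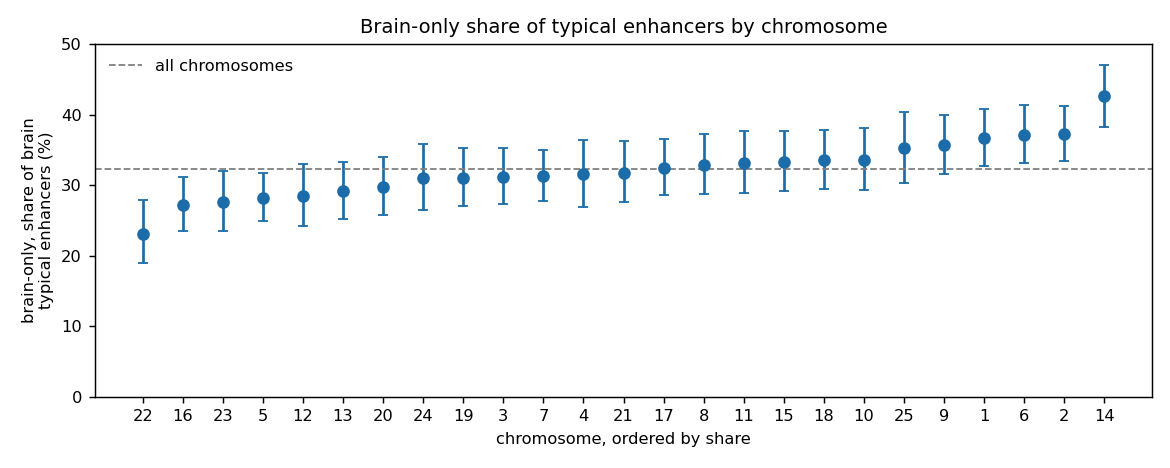
Share of the brain typical enhancers of each chromosome that is brain-only (%), with exact 95% intervals over regions; chromosomes are ordered by share and the dashed line is the share over all 25. Chromosome 22 is lowest at 23.1% and chromosome 14 highest at 42.6%.

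Distance to the nearest brain super-enhancer hardly separated brain-only regions from the others. The median was 653 kb (623 to 687) for brain-only regions and 614 kb (593 to 641) for the others, with quartiles of 236 and 1592 kb against 216 and 1458 kb. Within 50 kb of a super-enhancer lay 291 brain-only regions (7.17%) and 669 others (7.86%), and within 100 kb 509 (12.5%, 11.5 to 13.6) and 1208 (14.2%, 13.5 to 14.95). The direction depended on length. With the others weighted to the lengths of the brain-only regions their median was 672 kb, farther than that of the brain-only regions. Brain-only regions were the nearer at the median in 4 of 6 length classes, and the intervals of the medians overlapped in all 6. Over 20 kb the medians were 570 kb for brain-only regions and 494 kb for the others.

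The kind of super-enhancer nearby separated the groups more than its distance. Of the 664 brain super-enhancers, 36 were themselves without overlap in any other list. Within 50 kb of one of these lay 46 brain typical enhancers, of which 35 were brain-only (76.1%, 61.2 to 87.4). Without regions whose names give no number of loci, 30 of 41 were (73.2%). The 46 lay near 26 of the 36 super-enhancers. Neighbouring regions can share a state, so the intervals in this paragraph are too narrow. Within 50 kb of one of the other 628 super-enhancers lay 915 typical enhancers, of which 257 were brain-only (28.1%, 25.2 to 31.1). The shares were 55.6% against 27.1% from 50 to 100 kb and 60.8% against 32.4% from 100 to 200 kb. From 200 to 500 kb they were 35.2% and 32.3%. Within 200 kb, 105 of 165 typical enhancers near a brain-only super-enhancer were brain-only (63.6%, 55.8 to 71.0) and 820 of 2770 near another (29.6%, 27.9 to 31.3). Without regions whose names give no number of loci these shares were 61.8% (53.7 to 69.4) and 28.9% (27.2 to 30.7). The 36 super-enhancers meet the same condition as the brain-only regions, so the lists of the other organs enter on both sides, and no test was made. The split into super-enhancers and typical enhancers is that of the deposited lists. For some of the 36, such as chromosome 2 from 50513601 to 50544199, the deposited signal did not match the region's length.

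The 36 brain-only super-enhancers lay on 21 chromosomes. The brain-only super-enhancer on chromosome 1 from 27962801 to 27978399 had the most typical enhancers within 200 kb, 13, of which 9 were brain-only. Of these 9, 8 were regions whose names give no number of loci, and without such regions the count was 1 of 5. All 5 typical enhancers near the one on chromosome 10 from 21051801 to 21135999 were brain-only, and 7 of 8 near the one on chromosome 3 from 33935801 to 33988799. The brain-only super-enhancer with the highest signal, on chromosome 12 from 25849601 to 26145399, had 6 typical enhancers within 200 kb, of which 4 were brain-only. In contrast, chromosome 5 from 68260601 to 68383599 had 2 typical enhancers near it and neither was brain-only. These 5 were picked after their values were seen.

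**Figure D4:**
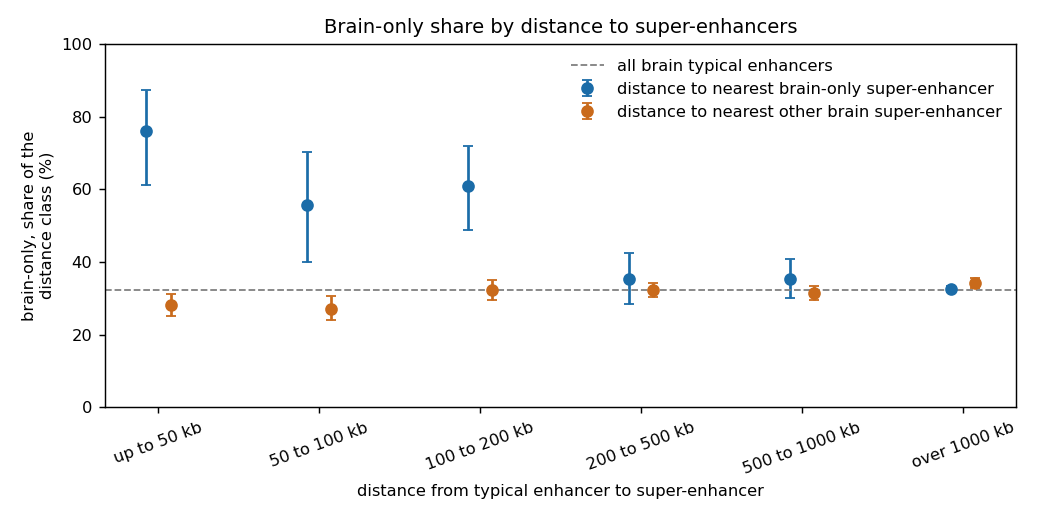
Share of brain typical enhancers that is brain-only (%) by distance to the nearest brain-only super-enhancer (blue, 36 regions) or the nearest other brain super-enhancer (orange, 628 regions), with exact 95% intervals over regions. The intervals are too narrow, because neighbouring regions can share a state. The dashed line is the share over all brain typical enhancers. Near brain-only super-enhancers the share is 76.1% within 50 kb and 60.8% from 100 to 200 kb, against 28.1% and 32.4% near the others.

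Brain-only regions had brain-only neighbours more often than the other brain typical enhancers did. When all brain enhancers of both kinds were ordered along each chromosome, the next enhancer on either side of a brain-only region was brain-only in 48.2% of cases (3906 of 8108), and that of another typical enhancer in 23.0% (3910 of 16985). Of all brain enhancers, 31.0% were brain-only. At least 1 of the 2 neighbours was brain-only for 69.6% of brain-only regions and 38.8% of the others, and both were for 26.6% and 7.14%. The difference was present in each length class, where the share of brain-only neighbours was 45.6% to 59.2% for brain-only regions and 21.6% to 25.4% for the others in the 6 length classes. It was highest, 59.2%, for brain-only regions over 20 kb. A region and its neighbours are judged by the same lists of the other organs. A long enhancer of another organ, or a stretch without any, can thus give neighbours the same state, and the difference is partly given by the rule. Neighbouring regions enter each other's counts, so intervals on these shares would be too narrow and are drawn only as a guide.

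Their distance to the nearest brain enhancer differed little. The nearest brain enhancer of any kind was 23.8 kb away at the median for brain-only regions (23.0 to 24.6) and 25 kb for the others (24.4 to 25.6). Brain-only regions were the closer in all 6 length classes, for example 27.6 against 33.4 kb under 1 kb and 17.6 against 20 kb over 20 kb. These values include the regions whose names give no number of loci, which lay closer together. For brain-only regions with a number alone the median was 24.4 kb. No such value was taken for the others or by length class. Brain enhancers whose names give a number of loci were never less than 12.6 kb apart, which limits how far this distance can differ. In windows of 1 Mb the number of brain-only regions had a mean of 2.97, a highest value of 22 and a variance 2.46 times the mean, and that of the others a mean of 6.22, a highest value of 24 and a variance 2.25 times the mean. Without regions whose names give no number of loci the highest values were 17 and 24. The ratio of variance to mean depends on the mean, so these ratios do not compare how clumped the groups were.

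Successive brain-only regions formed runs. There were 2116 runs, of which 1241 held a single brain-only typical enhancer (58.6% of the runs and 30.6% of the brain-only regions), and 141 held 5 or more. The latter took in 928 regions, 22.9% of the group, and spanned 19.2 to 2402 kb with a median of 300.4 kb. In 45 of the 141, with 288 brain-only regions, no enhancer of another organ lay anywhere within the span, and in the other 96 at least 1 lay between the brain-only regions. Only 13 runs held 10 or more, on 10 chromosomes, and 27 runs included a brain-only super-enhancer. Without regions whose names give no number of loci, 136 runs held 5 or more and 11 held 10 or more.

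The run with most regions lay on chromosome 14 from 32197601 to 32330799, with 20 brain-only regions in 133 kb that covered 50.8 kb. A similar one lay on chromosome 14 from 23240001 to 23343399, with 15 in 103 kb. None of the regions in these runs had a number of loci in its name, and such regions lay far closer together than the rest. The 104 of the brain-only group were a median of 2.20 kb from the nearest brain enhancer, against 24.4 kb for brain-only regions with a number. Brain enhancers with a number were never less than 12.6 kb apart. Whether the authors treated these regions differently is not given in the labels, and the longest runs without them are the 2 of 17 regions described next.

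The other long runs, all of regions with a number of loci, covered far longer stretches, and most of their regions were single loci. On chromosome 8 from 5946801 to 7576199, 17 brain-only regions stood in 1629 kb with 7 regions of other lists among them. This stretch held the brain-only region farthest from any enhancer of another organ, 0.999 kb long from 6579201 to 6580199, with 658 kb to the nearest, in the intestine. On chromosome 14 from 46115801 to 46804599 there were 17 in 689 kb, which covered 139 kb, with 2 regions of other lists. Chromosome 1 from 42899001 to 43873199 held 13, and chromosome 12 from 40327001 to 42728799 held 12. Chromosome 15 from 17321001 to 17939399 held 11 in 618 kb with 2 regions of other lists. Chromosome 17 from 47228001 to 47762799 held 11 with no region of another list in 535 kb. Of the 5 brain-only regions farthest from other organs' enhancers, 3 lay in this last run, 551 to 594 kb from the nearest, and the second farthest lay in the run on chromosome 8, at 639.6 kb.

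**Figure D5:**
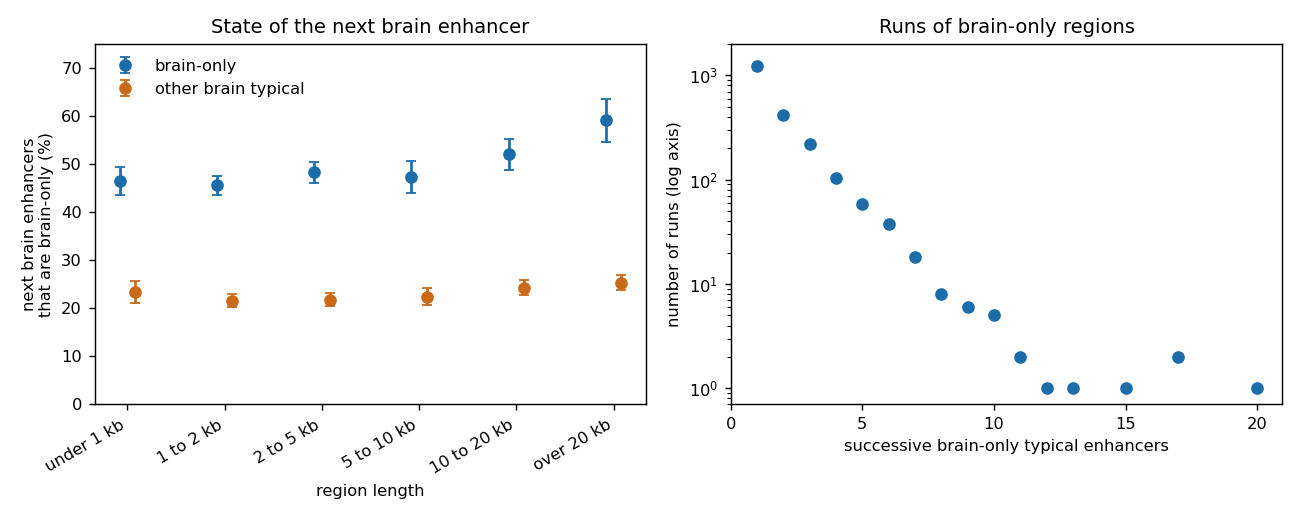
Left, the share of the next brain enhancers on either side that is brain-only (%), by class of region length, for brain-only (blue) and other (orange) brain typical enhancers, with binomial 95% intervals that are too narrow because neighbours enter each other's counts. Right, the number of runs (log axis) by how many successive brain-only typical enhancers they hold; 1241 hold 1 and the largest holds 20.

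Most brain-only regions lay at least 10 kb from enhancers in other organs, though the rule itself asks that they do not overlap. The gap to the nearest one was 21.6 kb at the median, with quartiles of 9.40 and 49.4 kb, and 3002 regions (73.9%) lay at least 10 kb away. Its median was 19.2 to 21.4 kb in the 4 length classes up to 10 kb, 24.4 kb from 10 to 20 kb and 30.8 kb over 20 kb. By organ the nearest enhancer was at 44.6 kb in the heart at 1 year, 47.4 kb in the intestine, 50.4 kb in the heart at 10 months and 60 kb in the testis at the median, the order in which the sets covered less of the genome. The testis, which covered the fewest base pairs, still held the nearest enhancer for 29.5% of brain-only regions.

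Regions in wide gaps resembled those in narrow ones in length but not in their neighbours. The 372 regions at least 100 kb from other organs' enhancers and the 1059 regions under 10 kb away both had a median length of 2.20 kb. Single loci were 74.2% and 79.1%. The wide-gap regions were farther from brain super-enhancers, 1042 against 540 kb at the median. Their next brain enhancers were brain-only in 81.4% of cases, against 32.5%, which is partly given, since a stretch without enhancers of other organs can hold only brain-only regions.

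Just inside the limit of the rule, 4 brain-only regions touched an enhancer of another organ with no base pair shared, on chromosome 5 from 46406001 to 46411399, chromosome 9 from 43399401 to 43401799, chromosome 10 from 29953801 to 29956599 and chromosome 19 from 30347001 to 30350799. The first 3 touched an intestine enhancer and the last one of the heart at 10 months. A total of 53 brain-only regions lay within 1 kb of one. Just outside the limit, 11 regions overlapped another list by 199 bp, the smallest overlap seen, among them chromosome 24 from 2615401 to 2627999, chromosome 3 from 23723001 to 23728199 and chromosome 16 from 43127401 to 43131199. Of the others, 1004 (11.8%) overlapped by under 1 kb, but 649 of the others were themselves under 1 kb long and could not overlap by more. Only 15 of the others overlapped by under 10% of the shorter region.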

How the data were processed

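The members and the quantities described were chosen with earlier results of these data known. Per the labels, 18 libraries, 9 of immunoprecipitated and 9 of input DNA, gave 10 deposited region lists in coordinates of Zv9. Per the submitters' processing notes, which give no roles, the tools were SICER 1.1, bedtools 2.24.0, Bowtie2 2.1.0, SAMtools 0.1.8 and CASAVA. The sources used here do not give how loci were joined, super-enhancers separated, input used or replicates combined.

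The deposited value of each region is a signal, which the authors gave as a total over the region, and no scaling between lists is stated. It was used only within the brain list and only for regions whose signal times 10000 was a whole multiple of their length, with no tolerance. Because copied values can pass this, medians are also given without regions whose name another matching region holds. Of the brain-only regions, 90.6% share their name with another brain typical enhancer, and of the others 80.9% do. Overlap and distance were taken between listed starts and ends. Deposited starts lie on multiples of 200 bp and are printed here with 1 added. A listed gap of 1 bp means that the windows touch.

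Medians carry order-statistic and shares exact Clopper-Pearson 95% intervals, over regions. No test was made, because membership comes from the same lists and regions are not replicates. Regions were named by signal, length, number of loci, distance to other lists, run size and closeness to the rule's limit, and others are said to be picked after their values were seen. No gene names are given, since the annotation at hand is of another build. Overlap, gap, neighbour and run steps were tested on simulated data. The software was pandas 2.3.3, scipy 1.17.1, numpy 2.4.6 and, for plots, matplotlib 3.10.9 under Python 3.11.15.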

Additional observations from a re-analysis of the deposited data

How the results depend on the processing

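Brain-only regions had more brain-only neighbours than the other brain typical enhancers under all 10 alternatives that give neighbours and were shorter under the 9 that give a length. All of these keep a rule of overlap or gap on the same lists, which favours short regions and neighbours of like state. Both directions were therefore partly given by the rule, and their recurrence is no separate support. The order of signal per base pair, of distance to super-enhancers and of the share of single loci changed when lengths were made alike. Weighting the others to the brain-only lengths gave 0.493 against 0.528 signal units per bp, 653 against 672 kb to a super-enhancer and 73.6% against 74.2% single loci. Among regions of 1 locus the signal was 0.549 against 0.566. It was 0.425 against 0.428 where no other region of that name matched the length, and 0.442 against 0.429 where the name was held once. The brain-only share of brain typical enhancers was 33.9% when overlap had to reach 50% of the shorter region, 23.9% with a gap of at least 10 kb to other lists, 33.9% without the heart at 10 months, 29.1% (1417 regions) with length-matched signal only, 30.7% without regions under 1000 bp and 38.4% among single loci. In the last 3 the median length was 2.80, 2.80 and 1.80 kb. Single loci were 71.9% with the overlap of 50%, 71.7% with the gap of 10 kb, 66.0% with length-matched signal and 69.2% without the shortest regions. Median distance to a super-enhancer was 692.9 kb (651.6 to 728.4) against 605.8 kb for the others with the gap of 10 kb. It was 605 against 550 kb with length-matched signal and 702 against 699 kb among single loci. The share of next brain enhancers that were brain-only was 46.1% with the gap of 10 kb, 49.9% without the heart at 10 months, 40.04% with length-matched signal, 46.6% without the shortest regions and 49.4% among single loci. Signal per bp was 0.460 against 0.442 for the others without the shortest regions. A gap of 1 kb and leaving out chromosome 4 moved none of these beyond its interval, nor did leaving out regions without a number of loci. The last of these settings, the weighting and both rules on names were chosen after seeing the data, and the cause of other changes was not tested. A share of single loci has no meaning among regions of 1 locus. No paired analysis was possible because the lists hold no value per replicate, and for the same reason no replicate could be left out. Depth is unknown, so a weak enhancer of another organ may be below its list's threshold.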

Other observations

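In 262 windows of 5 Mb with at least 20 brain typical enhancers, the brain-only share ran from 6.56% to 64.2%, with a median of 32.2%, and it was above 50% in 14. The highest was chromosome 14 from 45 to 50 Mb, where 34 of 53 were brain-only, followed by chromosome 12 from 40 to 45 Mb with 20 of 34. The window just before the latter, chromosome 12 from 35 to 40 Mb, had the lowest share of all, 4 of 61. Other low windows were chromosome 6 from 20 to 25 Mb with 2 of 29 and chromosome 4 from 55 to 60 Mb with 3 of 35. These windows were picked after their values were seen.

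With the way from the nearer chromosome end to the middle divided into 5 equal steps, the brain-only share was 32.0%, 36.0%, 33.8%, 32.0% and 28.5%.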
